A study of Mus musculus with 10 samples.

Results

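The genes described here are 45 interferon-response and antigen-presentation genes of the mouse, taken by name from the study's table of 24594 genes, with luminal and basal cells of the mammary gland compared. All 45 were found in the table and all 45 passed the filter on low counts, so that none drops out of the counts given here. They are the 4 subunits of the type I and type II interferon receptors, 6 transcription factors and feedback genes, 23 antiviral and sensor genes, 10 genes of class I presentation, and the immune inhibitory genes Ido1 and Cd274. Ido1 and Oas2, near 0 in basal cells, passed the filter only through the luminal libraries, where they are high. Their luminal calls are therefore not independent of the filter. The 10 libraries are bulk RNA-seq of epithelial cells freshly sorted from the virgin gland of wild type C57BL/6J mice, 5 luminal and 5 basal. No treatment, transgene or induced allele is given for either group. The labels give no age, and the study's methods give 12 to 20 weeks for its mice as a whole. Both groups carry the same genotype, so the cell type is the only labelled difference. The labels name EpCAM and CD49f for sorting, and all luminal subsets are together in a single luminal gate. The study's methods for mammary cells also stain with antibodies to TER-119, CD31 and CD45, a step meant to leave out blood and endothelial cells.

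Interferons are the signalling proteins that cells release on viral infection. Type I interferons bind a receptor made of IFNAR1 and IFNAR2, and through the kinases JAK1 and TYK2 they bring a complex with STAT2 and IRF9 to the interferon-stimulated response element, which drives antiviral genes such as Isg15, Mx1 and the Oas family. Interferon gamma binds IFNGR1 and IFNGR2 and acts through JAK1 and JAK2 on the gamma-activated site, inducing Irf1 and, with it, the genes that cut, carry and present peptides on class I molecules. Many of these genes also have a resting level in uninfected epithelium. Ido1, the enzyme that starts the breakdown of tryptophan to kynurenine, is a classical target of interferon gamma in many tissues.

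The count totals ran from 13203146 to 17998165 per library. Values are given as CPM, the counts scaled to a common library total, and a gene was called where the quasi-likelihood test of edgeR, adjusted over 14609 genes, gave a p under 0.05. In all 10 libraries the sample title names the other cell type than the cell type label, the source and the library name do. Groups here follow the cell type label. The summed level of 10 luminal markers, Krt8 and Krt18 among them, was 9379 to 13759 CPM in the libraries labelled luminal and 963 to 1442 CPM in those labelled basal. For 8 basal markers, Krt5, Krt14 and Acta2 among them, it was 28.9 to 80.9 CPM and 11021 to 15769.8 CPM. The lineage markers thus stood on the side of the cell type label in every library. Nothing in the labels says that the replicates came from separate cultures or animals, and p-values measure the spread between these libraries only.

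Of the 45 genes, 19 were higher in luminal cells, 13 were higher in basal cells and 13 were not called. As shares, 42.2% stood higher in luminal and 28.9% in basal cells, against 33.6% and 31.2% of all genes tested. In 20 genes, or 44.4%, the luminal and the basal libraries did not overlap, against 50.1% of all genes tested. The shares over all 45 genes therefore lay near the background of a pair of very different cell types. The median log2 fold change, luminal minus basal, was 0.28 over the 45 genes and 0.046 over all genes tested, and the extremes were 12.67 for Ido1 and -3.05 for Mx1. By role the counts ran apart, a contrast that was not tested. Class I presentation had 9 of 10 genes higher in luminal cells and a median of 0.80, whereas the antiviral and sensor genes had 5 of 23 higher in luminal cells, 9 higher in basal cells and a median of -0.31. In bulk samples such as these, fewer cells of a type and less RNA per cell cannot be told apart for any gene.

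**Figure D1:**
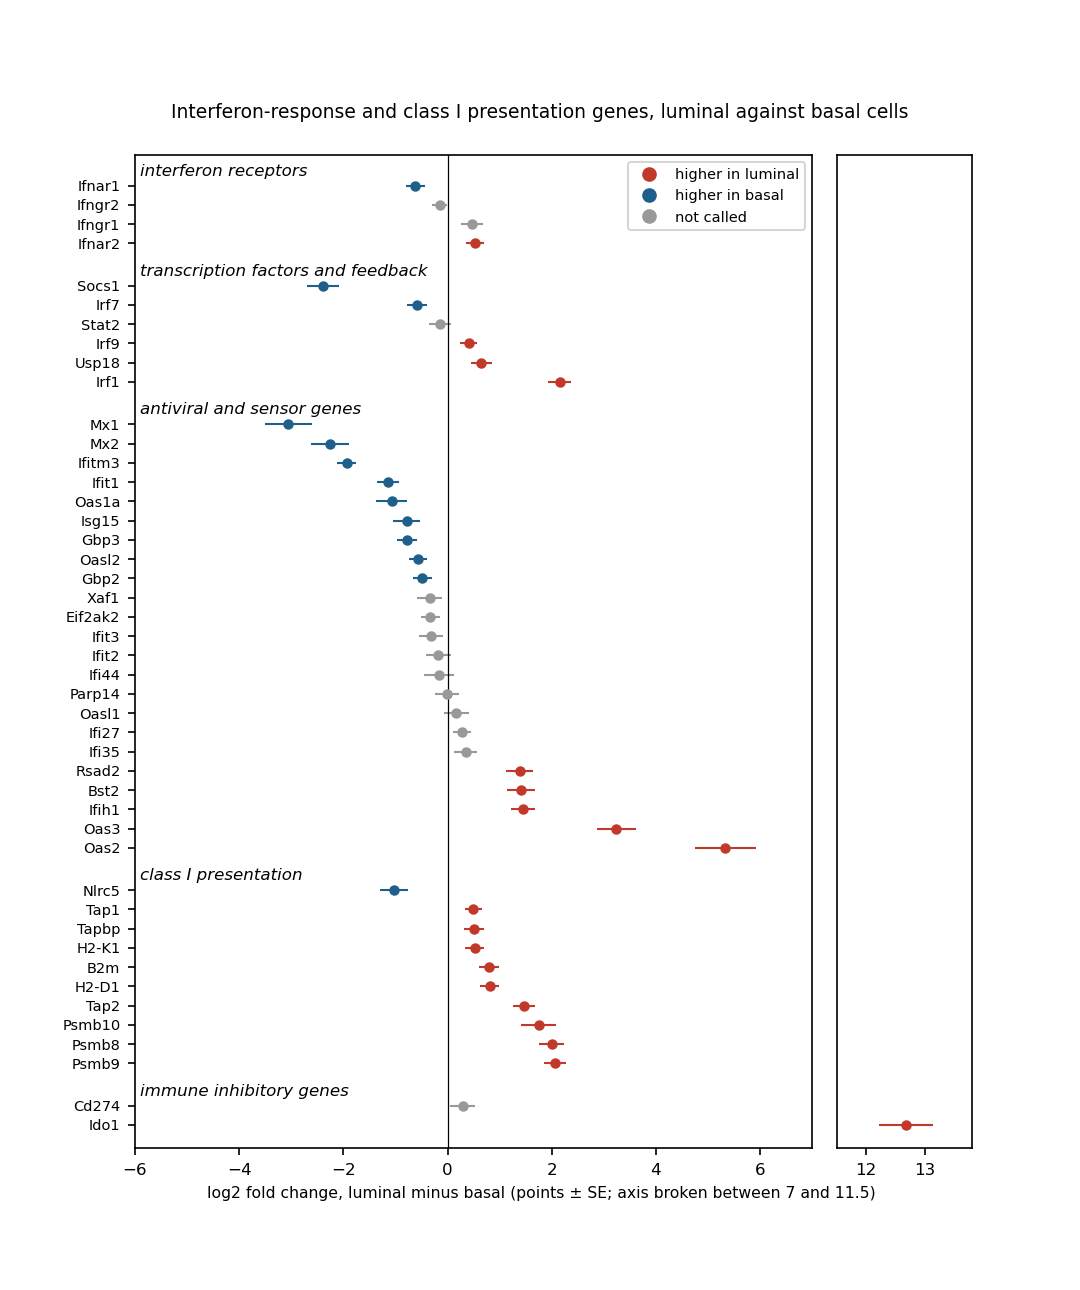
Log2 fold change, luminal minus basal, of the 45 genes (points, with SE as bars; 5 libraries in each group), arranged by role and coloured by the edgeR call; the horizontal axis is broken for Ido1. Class I genes sit to the right of 0 except Nlrc5 at -1.02, antiviral genes spread from -3.05 for Mx1 to 5.33 for Oas2, and Ido1 stands alone at 12.67.

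Ido1 (chr8:24584133-24596952, build GRCm38) was detected almost only in luminal libraries. Its level was 137, 164, 75.3, 130.1 and 184 CPM in the luminal libraries 1 to 5. In the basal libraries it was 0 in 4 of 5, and the remaining library, basal replicate 3, held a single count, or 0.0774 CPM. In counts, 11134 were luminal and 1 was basal. The ratio of the groups, per scaled total, was 10600.3, with an exact 95% interval of 1902 to 418725 that covers counting error only. The fitted log2 fold change was 12.67 (SE 0.46, adjusted p = 6.53e-11, edgeR). It rests on the single basal count, and without basal replicate 3, which leaves every basal library at 0, the fitted value was 14.10, which is no bound. Ido1 also passed the filter only through the luminal libraries, so its adjusted p is no separate support. All 5 pairs of same-numbered libraries had the same direction. Luminal replicate 3 was the lowest of its group, and the coefficient of variation over the luminal libraries was 29.9%. Per kilobase of transcript, Ido1 was at 83.4 CPM in luminal cells, a level near that of Irf1 at 89.8 and of Psmb8 at 99.9.

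Cd274 encodes PD-L1, the ligand that dampens T cells through PD-1 and a further interferon gamma target. It was 13.6, 11.1, 9.32, 8.55 and 5.65 CPM in luminal and 7.80, 7.91, 6.34, 10.1 and 7.31 CPM in basal libraries. The groups overlapped, and the log2 difference of 0.29 (SE 0.24, adjusted p = 0.307, edgeR) was not called. Of its 3622 exon bases, 511 are shared with another annotated gene, and since the counting is not stated to use strand, reads there cannot be assigned. Thus the 2 immune inhibitory genes differed by 12.67 and 0.29 on the log2 scale.

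The other genes of tryptophan and kynurenine metabolism did not follow Ido1 as a group. Of 7 tested, 3 had the higher level in luminal cells and 2 had it in basal cells, or 42.9% and 28.6% against 33.6% and 31.2% of all genes tested. Ahr, the receptor that kynurenine can activate, was 185 ± 58.5 CPM (SD, n = 5) in luminal and 59.3 ± 10.3 CPM in basal cells, a log2 difference of 1.64 (SE 0.21). Afmid, which hydrolyses N-formylkynurenine, differed by 0.90 and Kyat1, a kynurenine aminotransferase, by 1.14. In the other direction, Cyp1b1, a target gene of AHR, was 5.08 to 9.90 CPM in luminal and 88.1 to 139 CPM in basal libraries (-4.01, adjusted p = 2.87e-09). Slc7a5, a subunit of the large neutral amino acid transporter that imports tryptophan, was 28.3 to 129 CPM against 1152 to 1876 CPM (-4.42, adjusted p = 5.24e-08). Ido2, chosen here after its values were seen, was at most 1.22 CPM in luminal libraries and at 0 counts in all 5 basal libraries, and it was too low to be tested.

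Class I presentation is the display of peptides from inside the cell to CD8 T cells, and all 10 of its genes were called, 9 higher in luminal cells and Nlrc5 higher in basal cells. These are 90% and 10% of the 10, against 33.6% and 31.2% of all genes tested. In 6 of the 10, or 60%, the groups did not overlap, against 50.1% of all genes. The summed level of the 10 genes was 3007 to 4714 CPM in luminal libraries and 2014 to 2916 CPM in basal libraries, without overlap. The differences fell into a small and a large class. Heavy chains, B2m, Tap1 and Tapbp differed by 0.49 to 0.81 on the log2 scale, whereas Tap2 and the immunoproteasome subunits differed by 1.47 to 2.07.

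**Figure D2:**
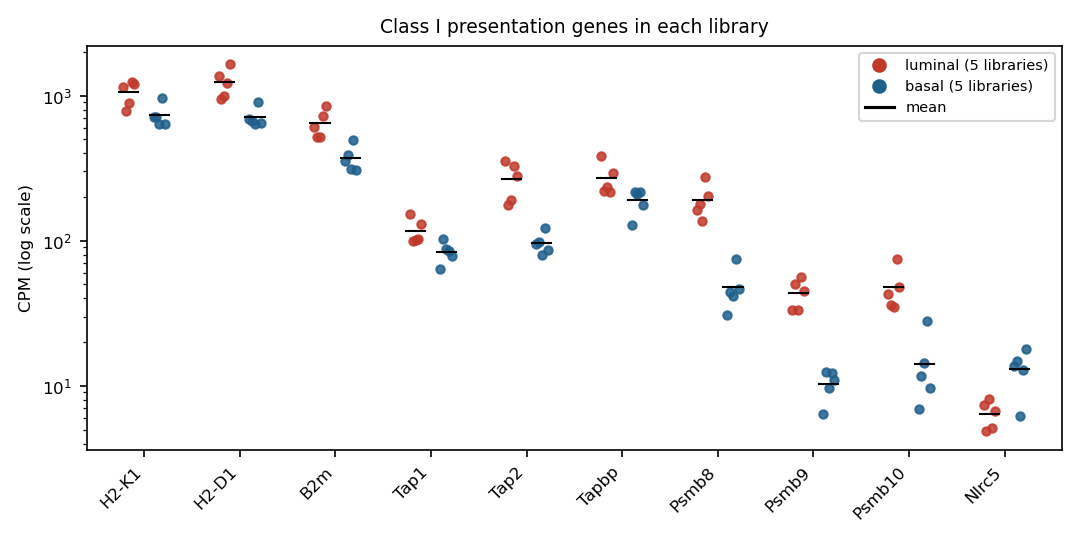
CPM on a log axis of the 10 class I presentation genes in each of the 5 luminal and 5 basal libraries (points, with the group mean as a line). Luminal libraries lie above all basal libraries in 6 genes (H2-D1, B2m, Tap2, Psmb8, Psmb9 and Psmb10), and Nlrc5 lies in the other direction.

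The heavy chains and beta-2-microglobulin form the class I molecule itself. H2-D1 (chr17:35263094-35267497) was 1373, 945, 994, 1219 and 1653 CPM in luminal and 685, 667, 634, 902 and 643 CPM in basal libraries. Every luminal library lay above every basal library, with the lowest luminal value at 945 and the highest basal value at 902 CPM. The log2 difference was 0.81 (SE 0.19, adjusted p = 0.00158, edgeR). H2-K1 (chr17:33996012-34000619) was 1149, 782, 886, 1238 and 1208 CPM against 712, 712, 639, 969 and 638 CPM, and basal replicate 4 overlapped the luminal range. It differed by 0.52 (SE 0.18, adjusted p = 0.0214), and the call was lost without basal replicate 2 (adjusted p = 0.0503). Heavy chain genes have near-identical copies, so reads could be split between them, and their separate values are uncertain. B2m (chr2:122147687-122153082), the shared light chain, was 605, 515, 519.9, 726 and 844 CPM against 355, 388, 311, 495 and 305 CPM with no overlap, a 1.73-fold difference (log2 0.79, SE 0.19, adjusted p = 0.00199). B2m was also the reference gene of the study's PCR assays. Those assays compared luminal progenitor with luminal mature cells, or treated with control organoids. The difference between luminal and basal cells therefore does not bear on them.

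The reference promoter of B2m (RefSeq, GRCm38.p6, chr2:122147437-122147686, plus strand, the 250 bases before the annotated start) is shown because it holds, 139 bases before the start, the core of the interferon-stimulated response element. That core was searched as GAAANNGAAA on either strand, and capitals mark the match.
B2m: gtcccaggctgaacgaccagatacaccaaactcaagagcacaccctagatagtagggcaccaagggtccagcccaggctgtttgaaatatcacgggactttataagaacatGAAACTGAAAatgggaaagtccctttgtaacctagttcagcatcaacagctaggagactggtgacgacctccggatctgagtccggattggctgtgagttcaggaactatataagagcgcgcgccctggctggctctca

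Peptides reach the class I molecule through the TAP transporter, which tapasin, the product of Tapbp, holds to the empty heavy chain. Tap2 (chr17:34204479-34216321) was 356, 176, 190.03, 325 and 281 CPM in luminal and 94.4, 97.9, 79.7, 121 and 86.3 CPM in basal libraries, without overlap and 2.77-fold higher in luminal cells (log2 1.47, SE 0.21, adjusted p = 2.27e-05). Its partner Tap1 (chr17:34187556-34197225) was 153, 99.1, 101, 103 and 131 CPM against 63.7, 103, 88.2, 84.5 and 78.04 CPM, with basal replicate 2 inside the luminal range. Tap1 differed by 0.49 (SE 0.16, adjusted p = 0.0171), a call that was lost without basal replicate 1 (adjusted p = 0.0519). The subunits of the same heterodimer thus differed between cell types by 2.77-fold and 1.40-fold. Tapbp (chr17:33919478-33929290) was 215 to 384 CPM in luminal and 129 to 216 CPM in basal libraries (log2 0.51, adjusted p = 0.0323). With the replicate number as a block its adjusted p was 0.0843, and it was also lost without luminal replicate 1 or 5 or basal replicate 1 or 5 (0.0613 to 0.0896) and with no filter (0.0627). Exons of other genes overlap 698 of 3781 exon bases of Tap2, 1053 of 3628 of Tapbp and 212 of 5476 of Tap1.

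Psmb8, Psmb9 and Psmb10 encode the catalytic subunits of the immunoproteasome, which replace Psmb5, Psmb6 and Psmb7 of the constitutive proteasome and shift its cuts towards peptides that fit class I molecules. Psmb8 (chr17:34198195-34201454) was 162, 179, 136, 273 and 203 CPM in luminal and 30.8, 44.005, 41.6, 75.2 and 46.7 CPM in basal libraries. Psmb9 (chr17:34182030-34187330) was 33.3, 50.04, 33.5, 55.97 and 44.98 CPM against 6.42, 12.4, 9.67, 12.3 and 11.03 CPM. Psmb10 (chr8:105935728-105938392) was 43.2, 36.1, 35.1, 75.4 and 48.3 CPM against 6.92, 11.7, 14.3, 28.01 and 9.71 CPM. No basal library reached the luminal range in any of these genes, and the libraries numbered 4 were the highest of their cell type for Psmb8 and Psmb10. The log2 differences were 1.998 (SE 0.24, adjusted p = 4.66e-06), 2.07 (SE 0.21, adjusted p = 1.11e-06) and 1.75 (SE 0.33, adjusted p = 0.000348), and these 3 calls held without the libraries numbered 4. Exons of other genes overlap 498 of 3381 exon bases of Psmb8 and 212 of 3660 of Psmb9.

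The constitutive counterparts differed less. Psmb5 was 78.1 ± 10.1 CPM (SD, n = 5) in luminal and 64.97 ± 18.8 CPM in basal cells and was not called (log2 0.27, adjusted p = 0.209), although without basal replicate 4 it was called higher in luminal cells (adjusted p = 0.0153). Psmb6 differed by 0.60 and Psmb7 by 0.69, both higher in luminal cells. The ratio of each immunoproteasome subunit to its counterpart within a library is given as a description, with no test, since it was chosen after the values were seen. Psmb8 to Psmb5 was 1.87 to 3.45 in luminal and 0.549 to 0.916 in basal libraries. Psmb9 to Psmb6 was 0.383 to 0.466 against 0.102 to 0.212, and Psmb10 to Psmb7 was 0.340 to 0.452 against 0.106 to 0.269. The ratios did not overlap in any of the 3 pairs and differed by 1.72, 1.48 and 1.18 on the log2 scale.

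**Figure D3:**
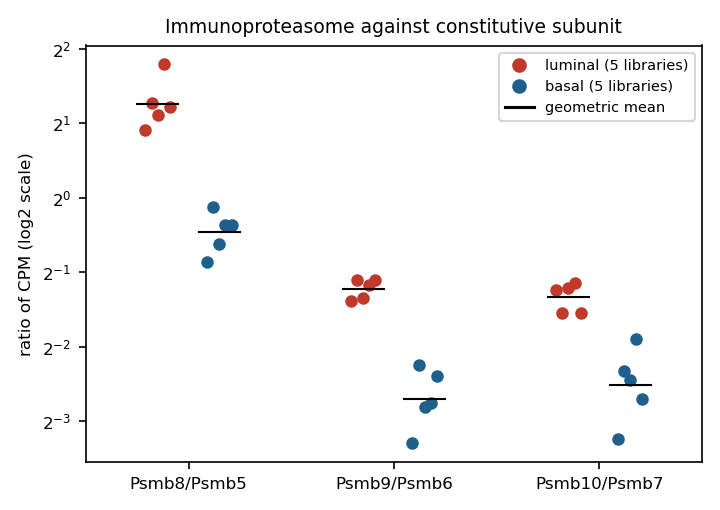
Ratio of the CPM of each immunoproteasome subunit to that of its constitutive counterpart, on a log2 axis, in 5 luminal and 5 basal libraries (points, with the geometric mean as a line). Luminal ratios of Psmb8 to Psmb5 lie between 1.87 and 3.45 and basal ratios between 0.549 and 0.916, and the other pairs separate in the same way.

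The promoter of Psmb8 (RefSeq, GRCm38.p6, chr17:34197945-34198194, plus strand) is shown for a match to the gamma-activated site. The site was searched as TTCNNNGAA, a palindrome read alike on both strands, which 7.02% of all windows of this length hold. Capitals mark the match, 97 bases before the start. The RefSeq windows of Psmb9 and Tap1, which are divergently transcribed neighbours, share most of their bases, and neither motif was found in them.
Psmb8: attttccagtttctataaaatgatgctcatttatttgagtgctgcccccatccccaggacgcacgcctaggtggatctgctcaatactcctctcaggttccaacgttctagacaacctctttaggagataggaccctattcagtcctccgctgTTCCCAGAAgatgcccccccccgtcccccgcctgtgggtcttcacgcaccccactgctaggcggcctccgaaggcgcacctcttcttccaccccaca

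Nlrc5 (chr8:94434335-94527272) encodes a transactivator that binds the promoters of class I genes with the RFX factors. It was the single class I gene that was higher in basal cells, at 7.38, 4.85, 8.16, 5.12 and 6.73 CPM in luminal and 13.7, 14.8, 6.19, 12.9 and 17.98 CPM in basal libraries. Basal replicate 3 lay within the luminal range and the other basal libraries lay above it. The log2 difference was -1.02 (SE 0.27, adjusted p = 0.00405). Nlrc5 thus ran against the class I genes it is known to activate, at a level per kilobase of 0.850 CPM in luminal and 1.73 CPM in basal cells. Its RFX partners ran in different directions. Rfxap was higher in basal cells (log2 -1.19, adjusted p = 8.19e-05) and Rfxank in luminal cells (0.77, adjusted p = 0.00446), while Rfx5 was not called (0.067, adjusted p = 0.744). Rfx5 and Rfxank were added after their values were seen.

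Further class I genes, from a wider list of the pathway, moved in both directions. Of 19 tested, 11 were higher in luminal cells, 5 were higher in basal cells and 3 were not called, or 57.9% luminal and 26.3% basal against 33.6% and 31.2% of all genes tested. Psme1, a subunit of the interferon-inducible proteasome activator, was 66.1 to 111 CPM against 25.04 to 44.6 CPM (log2 1.54). H2-T23, the heavy chain of Qa-1, was 263 to 417 CPM against 84.2 to 159.7 CPM (log2 1.49), and Cd1d1, which presents lipids, differed by 1.81. Calr, the chaperone calreticulin of the peptide-loading complex, was 712 to 1124 CPM in luminal and 1883 to 2843 CPM in basal libraries (log2 -1.33, adjusted p = 2.28e-05). Tapbpl, a tapasin-related peptide editor, differed by -1.24. Canx and Pdia3, which also act on folding heavy chains and were singled out after their values were seen, differed by -1.08 and -1.14. Of 7 further class I heavy chains, 5 were higher in luminal cells and none in basal cells. Calreticulin, calnexin and PDIA3 serve secretory glycoproteins in general and not class I molecules alone.

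Of 6 class II genes tested for comparison, 2 were higher in basal cells, 1 was higher in luminal cells and 3 were not called, or 33.3% basal and 16.7% luminal against 31.2% and 33.6% of all genes tested. H2-Ab1, a class II beta chain, was 5.57 to 11.7 CPM in luminal and 53.4 to 82.1 CPM in basal libraries (log2 -2.97, adjusted p = 3.38e-08). Cd74, the invariant chain, was 1.001 to 3.74 CPM against 11.6 to 30.5 CPM (log2 -2.97), and Ciita, the class II transactivator, was too low to be tested. H2-DMb1, a chain of the peptide exchange factor, was higher in luminal cells (1.96). H2-Aa, H2-Eb1 and H2-DMa, given after their values were seen, differed by -0.83, -0.49 and -0.27 and were not called. Beside these values, the summed level of 8 macrophage and dendritic cell markers was 19.6 to 31.4 CPM in luminal and 38.4 to 55.0 CPM in basal libraries. The sum rests on Cd68 (8.28 CPM luminal and 29.7 CPM basal on average) and Csf1r (9.32 and 14.8 CPM), both called higher in basal cells. Lyz2, C1qa and C1qb of the same list were called higher in luminal cells (log2 1.69, 1.87 and 2.91), Fcer1g was not called, and Adgre1 and Itgax were too low to be tested. Itgax, a dendritic marker, was at no more than 3 counts in any library. Whether such cells had a part in the class II values was not tested.

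Among the transcription factors, Irf1 and Socs1 differed most and in opposite directions. Irf1 (chr11:53770014-53778374), a factor induced by interferon gamma that activates class I genes and Ido1, was 137, 184, 209, 297 and 132 CPM in luminal and 44.9, 43.4, 32.2, 44.6 and 51.1 CPM in basal libraries. The groups did not overlap and luminal replicate 4 was the highest. The difference was 4.44-fold (log2 2.15, SE 0.22, adjusted p = 9.65e-07). Socs1 (chr16:10783808-10785536), which shuts off JAK signalling and is itself a target of the pathway, was 1.38, 1.79, 1.59, 2.75 and 1.14 CPM in luminal and 12.2, 8.19, 5.57, 8.94 and 10.4 CPM in basal libraries. Every basal library lay above every luminal one, and Socs1 fell by 2.39 on the log2 scale in luminal cells relative to basal cells (SE 0.31, adjusted p = 9.56e-06). Irf1 and Socs1 thus lay 4.44-fold higher and 5.25-fold lower in luminal cells, although both are textbook targets of interferon gamma.

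The promoters of both are shown (RefSeq, GRCm38.p6, chr11:53769764-53770013, plus strand, and chr16:10785537-10785786, minus strand), since they hold different motifs. In Irf1 capitals mark a match to the gamma-activated site, 90 bases before the start. In Socs1 they mark a pair of overlapping response element cores, 83 and 77 bases before the start.
Irf1: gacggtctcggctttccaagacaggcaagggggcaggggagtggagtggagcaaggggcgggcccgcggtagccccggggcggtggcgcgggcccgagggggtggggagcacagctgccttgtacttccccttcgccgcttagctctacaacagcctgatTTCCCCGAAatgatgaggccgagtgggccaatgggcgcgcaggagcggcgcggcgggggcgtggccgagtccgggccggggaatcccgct
Socs1: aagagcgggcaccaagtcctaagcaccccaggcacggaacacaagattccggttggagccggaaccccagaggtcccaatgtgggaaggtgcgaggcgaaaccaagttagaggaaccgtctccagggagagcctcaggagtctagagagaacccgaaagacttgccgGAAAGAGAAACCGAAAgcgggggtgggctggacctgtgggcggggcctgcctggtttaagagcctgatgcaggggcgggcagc

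The other members of this role differed less. Usp18, the protease that removes ISG15 and blocks IFNAR2, was 23.9 to 41.2 CPM in luminal and 14.9 to 27.9 CPM in basal libraries (log2 0.65, adjusted p = 0.0126). Irf7, the factor that amplifies type I interferon, was 23.3 to 34.6 CPM against 31.2 to 56.9 CPM and higher in basal cells (log2 -0.59, adjusted p = 0.016, 0.0848 with library totals alone). Irf9, the DNA-binding part of the type I complex, was 70.5 to 98.7 CPM against 41.6 to 72.5 CPM. Its log2 difference of 0.41 was called with an adjusted p of 0.0428, which became 0.0793 with the replicate number as a block and 0.0581 to 0.111 without luminal replicate 1 or 5 or basal replicate 1, 3 or 5. The call was also lost with DESeq2 (0.0594), with its size factors (0.0596) and with no filter (0.098). Stat2 was 57.9 ± 15.4 CPM (SD, n = 5) in luminal and 63.99 ± 15.7 CPM in basal cells and was not called (adjusted p = 0.568).

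The subunits of the type I and gamma receptors were present in both cell types, and their calls ran both ways. Ifnar1 (chr16:91485032-91510523) was 43.8, 40.9, 44.7, 21.2 and 40.6 CPM in luminal and 55.6, 59.7, 63.1, 57.8 and 57.8 CPM in basal libraries, higher in every basal library (log2 -0.62, SE 0.18, adjusted p = 0.00761). The call was lost when library totals alone were used for scaling (adjusted p = 0.0789). Luminal replicate 4 was far below the other luminal libraries. Ifnar2 (chr16:91372783-91405589) was 43.2, 41.98, 34.3, 42.8 and 52.3 CPM against 24.5, 38.96, 27.3, 33.8 and 24.6 CPM and higher in luminal cells (log2 0.53, SE 0.17, adjusted p = 0.0134), with overlap between the groups. The subunits of the type I receptor thus moved in opposite directions, by 1.54-fold and 1.44-fold. Ifngr1, the ligand-binding chain of the gamma receptor, was 42.7 to 112 CPM in luminal and 42.5 to 61.02 CPM in basal libraries and was not called (log2 0.47, adjusted p = 0.0635), but it was called without luminal replicate 4 (adjusted p = 0.00632). It was also called with upper-quartile factors (adjusted p = 0.0218), with library totals alone (0.0161) and without both libraries numbered 4 (0.00543). Ifngr2, the signalling chain, was 36.1 to 40.5 CPM against 35.2 to 55.6 CPM (log2 -0.15, adjusted p = 0.391).

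The lambda receptor, which restricts the response to type III interferon largely to epithelia, was higher in luminal cells in both chains. Ifnlr1 was 68.5, 82.9, 87.04, 63.5 and 65.3 CPM in luminal and 30.1, 39.6, 30.7, 31.01 and 39.1 CPM in basal libraries, without overlap (log2 1.11, SE 0.15, adjusted p = 1.32e-05). Il10rb, its shared partner chain, was 39.4 to 58.2 CPM against 18.1 to 32.2 CPM (log2 0.95). Of the kinases, Jak2, used by the gamma receptor, was 108 to 130.04 CPM against 39.7 to 53.6 CPM (log2 1.39, adjusted p = 2.20e-07). Tyk2 differed by 0.69 (adjusted p = 0.0278), a call lost without luminal replicate 2 or 3 or basal replicate 1, 3 or 4 (0.0521 to 0.0845). Jak1, shared by all interferon receptors, was not called (-0.075, adjusted p = 0.733).

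The ligands were mostly not detected. Ifnb1, interferon beta, was 0.438, 4.95, 1.41, 7.71 and 2.41 CPM in luminal and 0.0624, 0.546, 0.155, 0.750 and 0.719 CPM in basal libraries. It was the single ligand of 10 that could be tested, was called higher in luminal cells (log2 2.88, SE 0.74, adjusted p = 0.00364), and varied among luminal libraries from 7 to 101 counts. Ifng, Ifne, Ifna4, Ifna13, Ifnab, Ifnl2 and Ifnl3 had 0 counts in all 10 libraries, a count that allows up to 3 per library. Ifna2 had a single count in a basal library, and Ifnk reached 0.698 CPM at most.

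The antiviral effectors were divided between the cell types, even within a gene family. Among those higher in luminal cells, Oas2 (chr5:120730333-120749886) was 7.82, 20.3, 19.8, 23.5 and 10.3 CPM in luminal and 0.125, 1.09, 0.464, 0 and 0.360 CPM in basal libraries, a log2 difference of 5.33 (SE 0.58, adjusted p = 2.03e-06; 6.09 without basal replicate 2). Oas2 passed the filter only through the luminal libraries, so this call is not independent of the filter. Oas3 (chr5:120753098-120777684) was 17.01, 19.2, 15.5, 16.1 and 7.30 CPM against 1.93, 2.05, 0.387, 1.63 and 1.86 CPM (log2 3.24, SE 0.37, adjusted p = 3.18e-06). Both make the oligoadenylates that switch on RNase L, and neither overlapped between the groups. Their neighbour Oas1a (chr5:120896256-120907544), an enzyme of the same family, was 7.13, 9.74, 6.56, 8.48 and 5.33 CPM in luminal and 12.2, 25.2, 7.97, 20.4 and 12.6 CPM in basal libraries and was higher in basal cells (log2 -1.07, SE 0.29, adjusted p = 0.0051). Its paralogs Oas1b and Oas1g, which were looked at after the values were seen, were also higher in basal cells (-1.01 and -1.72), and Oas1c was higher in luminal cells (1.18). These copies are similar enough that reads could be split between them.

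Both Oas3 and Oas1a have a response element core near the start, and the 30 bases around it are shown for that reason (RefSeq, GRCm38.p6, minus strand, chr5:120777715-120777744 and chr5:120907526-120907555). Capitals mark the core, 75 bases before the start in Oas3, and overlapping cores 20 and 14 bases before it in Oas1a. The starts used for these windows lie inside the gene spans printed above, and the Oas1a cores fall almost wholly within its span.
Oas3: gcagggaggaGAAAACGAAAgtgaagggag
Oas1a: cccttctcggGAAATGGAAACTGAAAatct

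Rsad2 (viperin), which makes a chain-terminating nucleotide, was 24.95, 35.8, 27.8, 25.1 and 25.8 CPM in luminal and 5.86, 17.4, 7.27, 10.8 and 12.1 CPM in basal libraries, with no overlap (log2 1.38, SE 0.26, adjusted p = 0.000277). Bst2 (tetherin), which holds budding virions on the cell, was 66.5, 59.5, 43.8, 93.2 and 41.2 CPM against 17.7, 25.7, 15.01, 37.4 and 18.7 CPM, and the highest basal library, replicate 4, stayed below the lowest luminal library (log2 1.41, SE 0.27, adjusted p = 0.000404). Ifih1 (MDA5), a sensor of long double-stranded RNA, was 79.05, 49.8, 47.4, 40.9 and 70.9 CPM against 13.2, 27.3, 19.03, 19.9 and 25.95 CPM (log2 1.45, SE 0.23, adjusted p = 6.71e-05). These effectors and the sensor were each between 2.61-fold and 2.73-fold higher in luminal cells.

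Basal cells had the higher level of 9 antiviral genes of 23, or 39.1% against 31.2% of all genes tested. Of the type I driven genes named at the outset, Isg15, Mx1 and Oas1a were among the 9, whereas Oas2 and Oas3 were higher in luminal cells. Mx1 (chr16:97447035-97462906), a dynamin-like GTPase that is defective in C57BL/6 and most other laboratory strains, was 1.19, 5.16, 2.21, 1.07 and 1.90 CPM in luminal and 17.5, 35.7, 9.98, 12.4 and 21.998 CPM in basal libraries (log2 -3.05, SE 0.45, adjusted p = 3.58e-05). Mx2 was 6.004, 6.79, 4.78, 1.60 and 2.73 CPM against 19.6, 30.97, 10.3, 21.4 and 23.7 CPM (log2 -2.26, SE 0.37, adjusted p = 8.63e-05). No luminal library reached a basal one in either gene, and basal replicate 2 was the highest. Ifit1, which binds viral RNA lacking the host cap, was 46.8, 40.98, 22.8, 46.6 and 37.3 CPM against 67.4, 109, 66.9, 99.97 and 85.4 CPM, again without overlap (log2 -1.14, SE 0.21, adjusted p = 0.000224). Isg15, the ubiquitin-like modifier, was 24.6, 21.96, 19.6, 41.4 and 24.9 CPM against 29.2, 47.8, 32.1, 70.3 and 48.4 CPM. Luminal replicate 4 lay within the basal range of Isg15, while every same-numbered pair was higher in basal cells (log2 -0.78, SE 0.25, adjusted p = 0.0143).

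The promoter of Isg15 (RefSeq, GRCm38.p6, chr4:156200819-156201068, minus strand) is shown as the member with the most matches, 3 overlapping response element cores 78, 72 and 66 bases before the start, in capitals. That of Ifit1 (chr19:34640639-34640888, plus strand) holds a pair of separate cores on the other strand, 104 and 85 bases before the start.
Isg15: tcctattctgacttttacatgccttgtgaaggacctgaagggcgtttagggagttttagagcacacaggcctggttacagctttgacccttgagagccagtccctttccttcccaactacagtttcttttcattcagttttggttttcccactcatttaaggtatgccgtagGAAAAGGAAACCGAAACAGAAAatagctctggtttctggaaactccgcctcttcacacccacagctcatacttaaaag
Ifit1: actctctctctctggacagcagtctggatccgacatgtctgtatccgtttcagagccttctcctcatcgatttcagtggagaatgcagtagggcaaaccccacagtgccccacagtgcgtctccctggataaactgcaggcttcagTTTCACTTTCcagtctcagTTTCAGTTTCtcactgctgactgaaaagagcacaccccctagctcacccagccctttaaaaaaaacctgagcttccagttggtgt

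Ifitm3 (chr7:141009590-141010744), which blocks the fusion of virus with endosomes, had the highest level per kilobase of the antiviral genes with a known length, 218 CPM in luminal and 832 CPM in basal cells. In CPM it was 137, 147, 109.9, 166 and 178 CPM in luminal and 447, 539.99, 581, 774 and 479.9 CPM in basal libraries, 3.83-fold higher in basal cells (log2 -1.94, SE 0.19, adjusted p = 5.22e-07). Ifitm1 and Ifitm2 were higher in basal cells as well (-2.24 and -0.91, Ifitm2 named after its values were seen). Gbp3, a guanylate-binding protein of the interferon gamma response, was 10.6 to 20.95 CPM against 26.7 to 38.7 CPM (log2 -0.78, adjusted p = 0.00289). Gbp2 was 34.7 to 43.7 CPM against 34.7 to 78.7 CPM (log2 -0.48, adjusted p = 0.0338). The Gbp2 call was lost with upper-quartile factors (adjusted p = 0.101), library totals alone (0.213), the replicate block (0.0814), without both libraries numbered 4 (0.158) and without luminal replicate 2, 4 or 5 or basal replicate 2, 4 or 5 (0.0546 to 0.0936). Oasl2 was 56.6 to 88.7 CPM against 76.6 to 129 CPM (log2 -0.56, adjusted p = 0.0114, 0.0848 with library totals alone). Of 7 Gbp genes that could be tested, Gbp2 and Gbp3 included and the others looked at after the values were seen, 5 were called higher in basal cells and none in luminal cells, where 31.2% and 33.6% of all genes were.

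**Figure D4:**
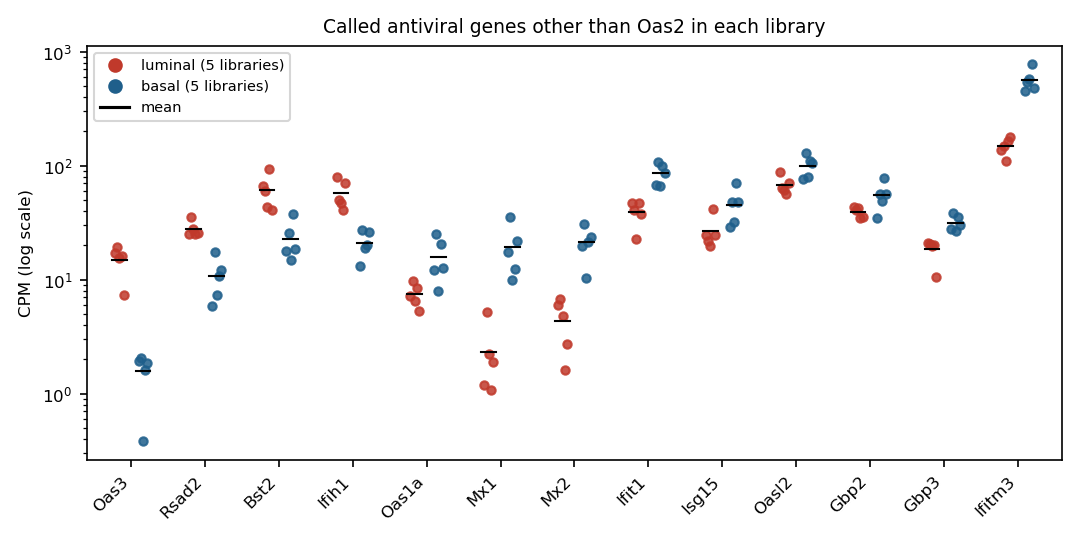
CPM on a log axis of 13 of the 14 called antiviral and sensor genes in each of the 5 luminal and 5 basal libraries (points, with the group mean as a line; Oas2 is left out because it is at 0 in a basal library). Oas3, Rsad2, Bst2 and Ifih1 are higher in luminal libraries, and the 9 genes from Oas1a to Ifitm3 are higher in basal libraries.

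The remaining 9 antiviral genes were not called. Ifit2 and Ifit3, of the same locus as Ifit1, were 13.4 ± 3.52 CPM against 15.2 ± 4.65 CPM and 22.2 ± 3.83 CPM against 27.5 ± 9.30 CPM (SD, n = 5; adjusted p = 0.529 and 0.244). Ifit3 has the near-identical copy Ifit3b, so its reads may be divided. The largest log2 differences among the uncalled genes were 0.35 for Ifi35 and -0.34 for Xaf1, and the smallest was -0.0086 for Parp14, an ADP-ribosyltransferase at 59.8 ± 19.3 CPM in luminal and 60.2 ± 17.6 CPM in basal cells. Eif2ak2 (PKR), the kinase that stops translation on double-stranded RNA, was 24.7 to 35.4 CPM against 26.5 to 45.8 CPM (log2 -0.33, adjusted p = 0.121). Ifi27 differed by 0.28, Ifi44 by -0.16 and Oasl1 by 0.17. Ifi35 was called without basal replicate 4 (adjusted p = 0.0273). A missed threshold does not show that the cell types express these genes alike.

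Of 41 genes tested in a wider list of interferon-stimulated genes, 13 had the higher level in luminal cells and 16 in basal cells, with a median log2 difference of -0.13. As shares these are 31.7% and 39%, against 33.6% and 31.2% of all genes tested. Slfn2, a Schlafen protein needed for T cell quiescence, was 127, 81.3, 109, 116 and 128 CPM in luminal and 1.12, 1.23, 2.17, 2.63 and 1.26 CPM in basal libraries (log2 6.06, SE 0.26, adjusted p = 2.44e-10). Ifit1bl1, a copy of Ifit1, was 0.952 to 5.27 CPM against 0 to 0.187 CPM (4.64) and moved against Ifit1. Tgtp1 and Tgtp2, immunity-related GTPases that are near-identical copies, were 0.305 to 1.79 and 0.382 to 3.58 CPM in luminal and 10.1 to 18.97 and 6.65 to 13.99 CPM in basal libraries (log2 -3.74 and -2.78, and -3.50 for Tgtp2 without luminal replicate 2). Of 11 further genes of nucleic acid sensing tested, 4 were higher in luminal cells, 1 was higher in basal cells and 6 were not called. As shares these are 36.4% luminal and 9.09% basal, against the same 33.6% and 31.2%. Tlr3, the endosomal receptor of double-stranded RNA, differed by 1.94 and Sting1, the adaptor of DNA sensing, by 1.17, both higher in luminal cells. The kinase gene Tbk1 was higher in basal cells (-0.59). Across the whole list of pathway genes, 108 were tested, 46 had the higher level in luminal cells and 30 had it in basal cells, or 42.6% and 27.8%, against the same 33.6% and 31.2%.

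The position of the genes was not used to choose them, and 23 of the 45 lie in 8 clusters in which neighbours are no more than 1 Mb apart (RefSeq, GRCm38.p6). The cluster of the major histocompatibility region on chromosome 17, chr17:33919478-34216321, holds Tapbp, H2-K1, Psmb9, Tap1, Psmb8 and Tap2, and all 6 were higher in luminal cells. H2-D1 lies farther along the same chromosome. The Mx, Gbp and Ifitm3-Irf7 pairs were higher in basal cells in both genes. Over all genes tested the luminal share was 33.6% and the basal share 31.2%, and whether neighbours were called alike more often than other genes was not tested. The other clusters held calls in both directions or a basal call beside genes that were not called. On chr5:120730333-120907544, Oas2 and Oas3 were higher in luminal cells and Oas1a in basal cells. On chr16:91372783-91564007, Ifnar2 was higher in luminal cells, Ifnar1 in basal cells and Ifngr2 was not called. On chr19:34550550-34650009, Ifit1 was higher in basal cells and Ifit2 and Ifit3 were not called. On chr5:114896926-114937911, Oasl2 was higher in basal cells and Oasl1 was not called.

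Promoter motifs were described as well, and they are not independent of the choice of genes. The genes were chosen by name as interferon-response genes, and the response element is what drives many of these. A raised share of its core therefore follows in large part from that choice. RefSeq windows were found for 36 of 45 genes, those without being Usp18, Ifi27, Mx1, Mx2, Oas2, Parp14, Nlrc5, Tap2 and Ido1. The response element core (GAAANNGAAA or TTTCNNTTTC) was found in 12 of the 41 windows, or 29.3%, against 2.98% of 32851 windows of the same 250 bases over all genes. The gamma-activated site was found in 7 of 41, or 17.1%, against 7.02%. By role, the core was in 9 of 18 antiviral genes and 1 of 8 class I genes. By call, it was in 6 of 10 genes higher in basal cells, 4 of 15 higher in luminal cells and 2 of 11 not called. The gamma-activated site was in 1 of 10 genes higher in basal cells, 4 of 15 higher in luminal cells and 2 of 11 not called. In Bst2 the site overlaps the core. A match is a run of letters, and binding was not measured.

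Within a cell type, single libraries were often the highest or the lowest in many of the genes. Basal replicate 2 was the highest of its group in 21 of the 45 genes and in 14 of the 23 antiviral genes, for example Ifi44 at 39.6 CPM against 15.1 to 22.8 CPM in the other basal libraries. Basal replicate 4 was the highest in 17 genes and in 6 of the 10 class I genes. Basal replicates 1 and 3 were the lowest in 23 and 18 genes. Luminal replicate 1 was the highest in 17 genes and luminal replicate 4 in 13, among them Psmb8, Psmb10, Irf1, Bst2 and Isg15. Replicates 4 of both cell types share a library number, which may mark the animal. Without both of them, an alternative added after seeing the data, 21 genes had the higher level in luminal cells and 12 had it in basal cells. In that setting 33 of the 45 genes were called, beside 9616 of all 14680 genes tested.

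**Figure D5:**
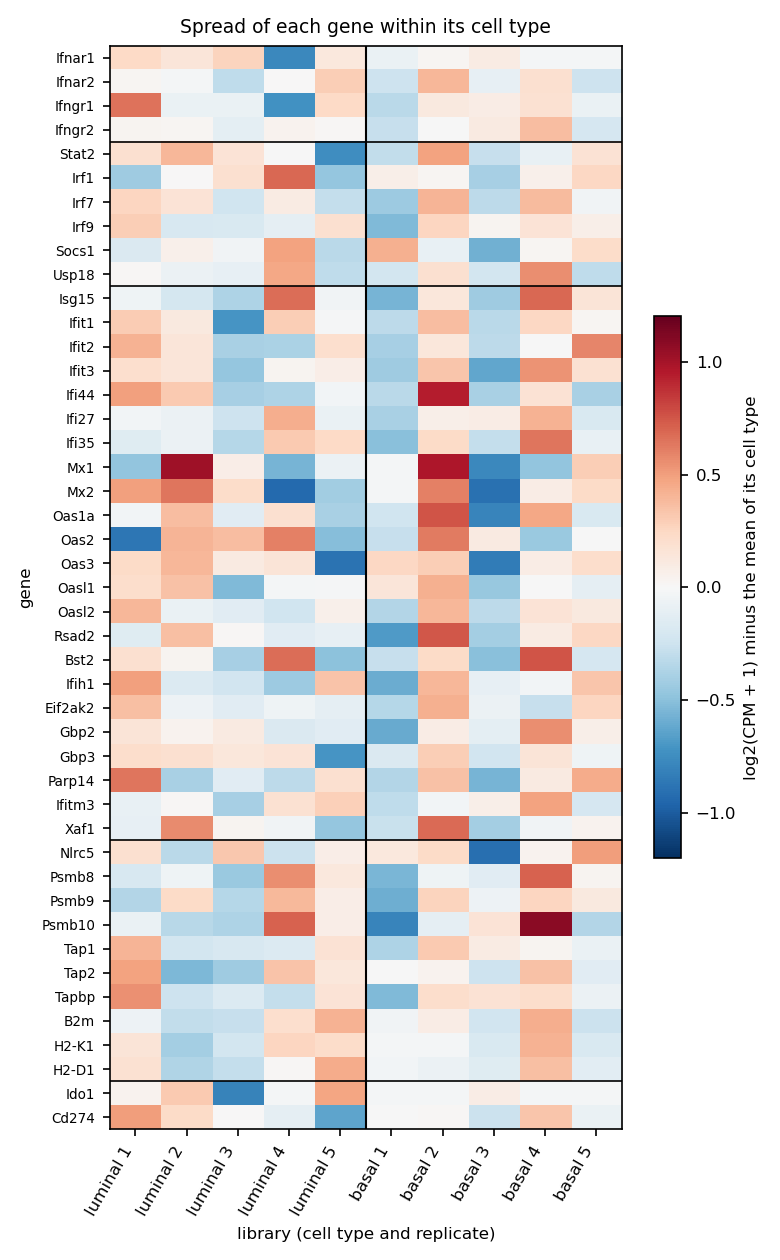
Difference of log2(CPM + 1) from the mean of the same cell type for each of the 45 genes (rows, in order of role, lines between roles) in each library (columns). Basal replicate 2 is raised across the antiviral genes, basal replicate 4 across the class I genes, and basal replicates 1 and 3 are lowered.

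Markers of other cells were measured in the same libraries. Of 7 T and NK cell markers, Cd3e, Cd3d, Cd3g, Nkg7 and Gzmb were at 0 counts in all 10 libraries and Cd8a had a single count in a basal library. Klrb1c, the remaining marker, was 0.190 to 1.99 CPM in luminal and 0.464 to 1.12 CPM in basal libraries and was not called. The sum of 5 general leukocyte markers was 4.25 to 9.11 CPM in luminal and 0.464 to 3.31 CPM in basal libraries. Cd52, the single one of them that could be tested, was higher in luminal cells (log2 2.03, adjusted p = 0.00664), on the same side as 9 of the 10 class I genes. The sum of 7 endothelial markers was 5.75 to 10.8 CPM and 8.98 to 16.8 CPM. Of these, Cdh5 was higher in basal cells (0.217 CPM on average in luminal and 4.58 CPM in basal cells, log2 -4.37) and Egfl7 in luminal cells (2.55 and 1.097 CPM on average). The sum of 6 fibroblast markers was 27.9 to 117 CPM and 27.5 to 46.3 CPM. Dcn of that list was higher in luminal cells (log2 1.67) and Pdgfra in basal cells (-1.09), and the other 4 were not called. The macrophage and dendritic markers, given with the class II genes, were called in both directions, with 3 luminal and 2 basal calls. The sum of 5 pericyte markers was 94.9 to 269 CPM in luminal and 33.8 to 45.8 CPM in basal libraries. Nearly all of the luminal sum was Notch3, at 94.9 to 268 CPM, which is also a gene of luminal progenitors. Rgs5, Pdgfrb and Kcnj8 were higher in basal cells (log2 -6.999, -3.84 and -4.44), on the same side as Mx1, Mx2, Ifit1 and Ifitm3, and Rgs5 was 16.9 to 28.9 CPM there and at 0 counts in 4 of 5 luminal libraries. Of 3 erythroid markers, Hba-a1 was higher in luminal cells at 3.37 to 15.9 CPM (log2 7.34, with no more than 3 counts in a basal library). The sum of 4 B and plasma cell markers was at most 0.687 CPM, and that of 5 adipocyte markers was 0.611 to 1.59 CPM in luminal and 3.95 to 9.13 CPM in basal libraries. The part of such cells in the values of the 45 genes was not tested.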

How the data were processed

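Poly(A) RNA-seq libraries of 5 luminal and 5 basal samples were used. The deposited table holds raw read counts per gene, which the authors made from reads trimmed with cutadapt 4.2 and aligned with Bowtie2 2.3.5.1, per the labels to mm10 (hg19 is listed as well). The aligner does not split reads over introns, which can lower counts of genes with short exons. The counting tool, annotation and use of strand are not given in the sources used here. Gene identifiers were matched to RefSeq symbols (GRCm38.p6) for 24570 of 24594 genes. Lengths came from GENCODE transcripts.

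Genes were filtered with filterByExpr of edgeR 4.0.16 (minimum count 10, minimum total 15), which left 14609. Genes near 0 in a cell type, such as Ido1, Oas2 and Ifit1bl1 in basal cells, passed only through the other cell type. TMM factors, glmQLFit and glmQLFTest gave log2 fold changes, luminal minus basal, with Benjamini-Hochberg adjustment over all genes tested and a threshold of 0.05. The SE is the fold change over the root of F. CPM used the TMM-scaled totals of tested genes. R 4.3.3, DESeq2 1.42.0 and limma 3.58.1 served for the alternatives. The fits were also run on simulated data with a single fixed dispersion and few changed genes. These libraries differ from that setting, so the run checks the code and not the calls made here. Alternatives were other scaling (DESeq2 size factors, upper quartile, totals only), no filter, a filter of 10 counts in every library, the tests of DESeq2 and limma voom, a replicate block, and leaving out each library.

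A luminal and a basal library of the same number begin with the same digits in their names. Their deviations from the group means correlated at -0.13, 0.11, -0.067, 0.25 and 0.057 for numbers 1 to 5, so the block is an alternative. Library counts of a group differed by more than sampling noise in every pair. The 45 genes and all lists were chosen with earlier results of these data known. All 45 genes are named, and of the wider pathway list (a gene of it is not reported here) the signalling and proteasome genes, Ciita, Cd74, the ligands and up to 3 with the largest change in each direction and group, among those called and alike in all 5 pairs. Total counts of 13203146 to 17998165 set the precision, and counting intervals cover counting error only.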

Additional observations from a re-analysis of the deposited data

Results flagged for a closer look

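Groups of 5 libraries were compared in 176 cases (45 genes and the named pathway genes, each cell type alone). In 19 of them a library stood far from the other 4, by the Dixon ratio of gap to range. About 8.8 would by chance at 1 in 20, if values were normal and the groups independent. The groups share the same 10 libraries, so whether 19 is an excess was not tested. Of the 19, 4 were in luminal replicate 4 and 4 in basal replicate 4. Luminal replicate 4 was low for Ifnar1 (21.2 CPM against 40.6 to 44.7) and high for Isg15 (41.4 against 19.6 to 24.9), Ifi27 (126 against 78.0 to 90.4) and Pias1 (79.5 against 47.2 to 55.2). Basal replicate 4 was high for H2-K1 (969 CPM against 638 to 712), H2-D1 (902 against 634 to 685) and Psme1 (44.6 against 25.0 to 30.3), and low for Jak1 (115 against 147 to 153). Without both libraries numbered 4, H2-K1, H2-D1, Isg15, Ifnar1 and Psme1 were called in the same direction as with them. Pias1, higher in luminal cells in the main fit (log2 0.40, adjusted p = 0.0353), was then not called (log2 0.21, adjusted p = 0.149). Its call was also lost with the replicate block (adjusted p = 0.0698), DESeq2 (0.0576), DESeq2 size factors (0.0584) and no filter (0.0972). Leaving out luminal replicate 3 or 4 or any single basal library lost it as well (0.0515 to 0.0981).

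Luminal replicate 2 was high for Mx1 (5.16 CPM against 1.07 to 2.21), Rsad2 (35.8 against 25.0 to 27.8) and Tgtp2 (3.58 against 0.382 to 1.25). Luminal replicate 5 was low for Gbp3 (10.6 CPM against 19.9 to 21.0) and high for Ifnk (0.698 against 0 to 0.123). Luminal replicate 1 was high for Eif2ak2 (35.4 CPM against 24.7 to 26.2), and luminal replicate 3 was low for Ifngr2 (36.1 against 39.7 to 40.5). Basal replicate 1 was high for Irf8 (3.62 CPM against 1.02 to 1.69) and Ifnk (0.561 against 0 to 0.120), basal replicate 2 was high for Mavs (17.4 against 14.0 to 14.7), and basal replicate 3 was low for Oas3 (0.387 against 1.63 to 2.05). The causes were not tested.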

How the results depend on the processing

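Over 19 alternatives, 16 to 22 of the 45 genes had the higher level in luminal cells and 9 to 13 had it in basal cells, and the median log2 fold change was 0.085 to 0.46. Of the pathway genes, 43 to 53 were on the luminal side and 22 to 32 on the basal side. Scaling by library totals alone raised log2 values of all genes by a median of 0.19 and gave 22 calls on the luminal side and 9 on the basal side, against 19 and 13. Of all 14609 genes tested, 9410 were called with this scaling, against 9462 in the main fit. Ifnar1, Irf7, Oasl2 and Gbp2 then lost their call (adjusted p = 0.0789, 0.0848, 0.0848 and 0.213), and Ifngr1, Ifi27 and Ifi35 gained a luminal one. Of the named pathway genes, Tbk1 and Irf2bp1 lost their call (0.0701 and 0.249) and Psmb5 gained one (0.0395). Upper-quartile factors raised the log2 values of all genes by a median of 0.12. In 29 of the 45 genes, direction and call were the same under every alternative that gave a value (15 higher in luminal, 9 in basal, 5 not called). With the replicate block, 17 calls were luminal and 12 basal, and Irf9, Gbp2 and Tapbp lost their call, with no other call of the 45 changed. In that fit 29 of the 45 genes and 9279 of all 14609 genes tested were called, against 32 and 9462 in the main fit. Requiring 10 counts in every library removed Ido1, Oas2 and Oas3.

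The genes that changed direction were not called in either direction. Under totals alone, log2 values were 0.040 for Ifngr2, 0.049 for Stat2, 0.0023 for Ifit2, 0.022 for Ifi44, 0.17 for Parp14 and 0.12 for Jak1. Under upper-quartile factors, they were 0.11 for Parp14 and 0.044 for Jak1, and without both libraries numbered 4, Parp14 was at 0.082. With each library left out in turn, the values ran from -0.23 to 0.0019 for Stat2, from -0.29 to 0.0091 for Ifit2, from -0.29 to 0.16 for Ifi44, from -0.19 to 0.11 for Parp14 and from -0.17 to 0.061 for Jak1. The causes were not tested. Depth limits Ifnb1, the other ligands, Oas2 in basal cells and Ido1 in basal cells.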
